A study of Mus musculus with 12 samples.

Results

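Cd163, Mrc1, Adgre1, Csf1r, C1qa, C1qb, C1qc, Timd4, Mertk and Lyz2 are 10 genes that mark macrophages, and they were followed here among the 22843 gene symbols in the mRNA table of a study of the mouse thymus. For each gene the estimated counts of all transcripts with its symbol were summed in each library, and all 10 passed the filter on low counts that left 14805 genes for testing. The 10 genes were selected on their roles with their own summed counts in these 6 libraries already known, so that these counts count as used in the choice. Their levels and changes with age are therefore a description, and no test is given for them. Thymuses came from male wild type C57BL/6 mice aged 2 weeks (2W), 6 weeks (6W) or 3 months (3M), with 2 biological replicates per age. All groups shared strain, genotype and sex, and no treatment, transgene or Cre is named for any of them. Total RNA of the tissue was sequenced as ribosomal RNA-depleted long RNA and as small RNA, which gave 6 libraries of each kind. Each long RNA library held between 16519753 and 22553481 estimated counts and each small RNA library between 9181478 and 10994118 miRNA counts, and these limits of depth cover counting error only.

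Macrophages of the thymus engulf the many thymocytes that die when they fail selection. They depend on the receptor encoded by Csf1r, recognise phosphatidylserine on dying cells directly through Timd4 or by way of bridging proteins through Mertk, and secrete the complement protein C1q, which coats cell debris. Resident populations are known that carry Timd4 in the cortex and Cx3cr1 in the medulla, whereas Cd163 and Mrc1 mark macrophages that take up haemoglobin complexes and mannosylated glycoproteins. In RNA of a whole tissue, a lower level can come from fewer cells of a type or from less RNA in each cell, and these cannot be told apart.

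All 10 genes had counts in all 6 libraries. Their levels are given as counts per 1000000 after TMM scaling (CPM), a unit that is not corrected for gene length. Summed over the 10 genes, the level was 395 and 344 CPM in the 2W libraries, 812 and 754 CPM in the 6W libraries, and 814 and 864 CPM in the 3M libraries. Each of the 10 genes was higher in both 6W libraries and in both 3M libraries than in either 2W library. Groups that do not overlap in this direction were found for 28.0% of all tested genes in 6W against 2W and for 27.7% in 3M against 2W. Between 6W and 3M the libraries overlapped for 9 of the 10 genes. Adgre1 was the exception, and the share of all genes with both 3M libraries above both 6W libraries was 25.9%.

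**Figure D1:**
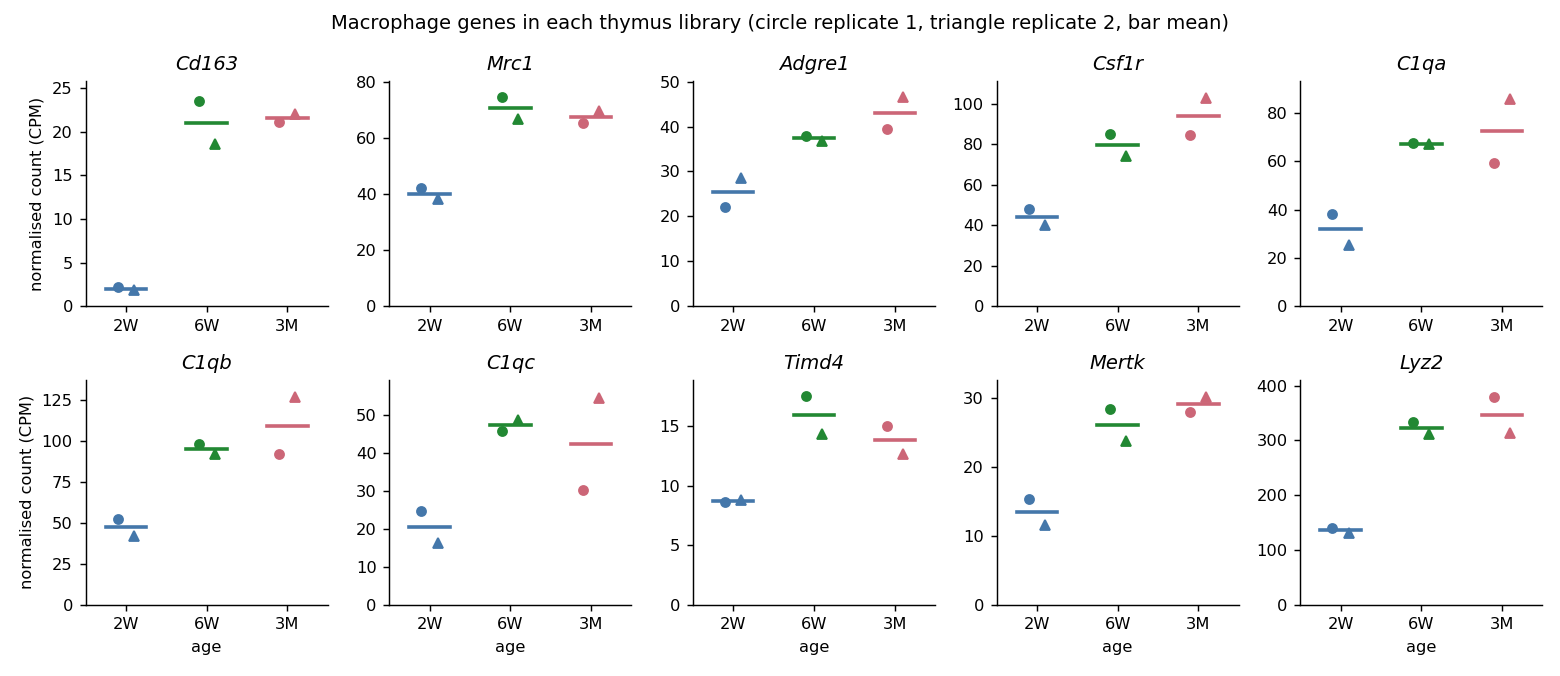
Normalised count (CPM, linear axis from 0) of each of the 10 macrophage genes by age, with 1 circle (replicate 1) and 1 triangle (replicate 2) per library and a bar at the mean of each age. Both 2W libraries lie below the 6W and 3M libraries in all 10 panels, and Cd163 has the widest gap as a ratio, from 2.15 CPM or less at 2W to 18.6 CPM or more later.

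Cd163, the scavenger receptor for haemoglobin bound to haptoglobin, stood apart from the other 9 genes. It had 34 and 30 estimated counts in the 2W libraries, 485 and 421 in the 6W libraries, and 351 and 491 in the 3M libraries. In CPM these were 2.15 and 1.84 at 2W, 23.5 and 18.6 at 6W, then 21.1 and 22.0 at 3M. The log2 fold change of Cd163 was 3.40 (standard error 0.20) in 6W against 2W, a 10.5-fold difference, and 0.04 (standard error 0.16) in 3M against 6W. The mRNA table lists 3 transcripts under the symbol Cd163, of which 1 was assembled from the reads and took 52.5% of the counts of the gene. The reference transcripts ENSMUST00000032234 and ENSMUST00000112541 took 35.2% and 12.3%. At 2W the division among the 3 rested on few reads, with 20.3 and 0 estimated counts for ENSMUST00000112541 and 0 and 11.0 for ENSMUST00000032234.

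Mrc1, the mannose receptor, was at 42.0 and 38.3 CPM in the 2W libraries, 74.8 and 66.7 CPM in the 6W libraries, and 65.6 and 69.7 CPM in the 3M libraries. Its log2 fold change was 0.82 (standard error 0.12) in 6W against 2W and -0.06 (standard error 0.12) in 3M against 6W, the smallest standard errors of the 10 genes. A single transcript, ENSMUST00000028045, took all of its counts. So both receptors of this pair were lower at 2W than later, by 1.76-fold for Mrc1 and by 10.5-fold for Cd163 in 6W against 2W.

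Adgre1 encodes F4/80, the adhesion receptor by which mouse macrophages are most often recognised. It was at 22.1 and 28.6 CPM at 2W, 38.0 and 36.8 CPM at 6W, and 39.6 and 46.5 CPM at 3M. Between 2W and 6W it had the smallest difference of the 10 genes, a log2 fold change of 0.56 (standard error 0.16). Csf1r, the receptor for the growth factors Csf1 and Il34, was at 48.1 and 39.9 CPM at 2W, 85.0 and 74.3 CPM at 6W, and 84.7 and 103 CPM at 3M. Its log2 fold change was 0.86 (standard error 0.16) in 6W against 2W and 0.24 (standard error 0.15) in 3M against 6W, the largest of the 10 genes in the latter. The transcript ENSMUST00000086763 took 92.5% of the Adgre1 counts, and ENSMUST00000025523 took 94.0% of the Csf1r counts.

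The receptors for dying cells were also lowest at 2W. Mertk, a receptor tyrosine kinase that binds phosphatidylserine through Gas6 and Pros1, was at 15.4 and 11.6 CPM at 2W, 28.4 and 23.8 CPM at 6W, and 28.0 and 30.2 CPM at 3M. Timd4, which binds phosphatidylserine itself, was at 8.60 and 8.83 CPM at 2W, 17.5 and 14.3 CPM at 6W, and 15.0 and 12.6 CPM at 3M. Their log2 fold changes in 6W against 2W were 0.95 (standard error 0.17) for Mertk and 0.87 (standard error 0.17) for Timd4. The value in 3M against 6W was 0.16 (standard error 0.17) for Mertk and -0.21 (standard error 0.17) for Timd4, the lowest of the 10 genes, although the Timd4 libraries of these ages overlapped.

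Lyz2 encodes lysozyme, which is made by macrophages and also by monocytes and neutrophils. It was the most abundant of the 10 genes, at 141 and 131 CPM at 2W, 333 and 311 CPM at 6W, and 379 and 313 CPM at 3M. Its log2 fold change was 1.24 (standard error 0.13) in 6W against 2W and 0.10 (standard error 0.13) in 3M against 6W. Lyz1, a closely related neighbour of Lyz2 on chromosome 10, was at 4.74 to 14.0 CPM. Reads of these paralogs may have been divided between them in the counting, so that the values of both are uncertain to that extent.

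C1qa, C1qb and C1qc encode the A, B and C chains from which each C1q molecule is built. The genes lie side by side on chromosome 4. C1qa was at 38.3 and 25.4 CPM at 2W, 67.6 and 67.2 CPM at 6W, and 59.2 and 85.9 CPM at 3M. C1qb was at 52.7 and 42.1 CPM at 2W, 98.4 and 92.2 CPM at 6W, and 92.1 and 127 CPM at 3M. C1qc was at 24.8 and 16.2 CPM at 2W, 45.8 and 48.7 CPM at 6W, and 30.3 and 54.6 CPM at 3M. The log2 fold changes in 6W against 2W were 1.08 (standard error 0.24), 1.01 (standard error 0.19) and 1.20 (standard error 0.31) for the A, B and C chains. They were 0.11 (standard error 0.24), 0.20 (standard error 0.18) and -0.15 (standard error 0.30) in 3M against 6W.

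The chains deviated together at 2W and 3M. All 3 were higher in replicate 1 than in replicate 2 at 2W, by 1.25-fold (C1qb) to 1.53-fold (C1qc), and higher in replicate 2 than in replicate 1 at 3M, by 1.37-fold (C1qb) to 1.80-fold (C1qc). At 6W the replicates of the 3 chains differed by 1.07-fold or less. The spread between the 3M replicates of C1qc was the widest of any of the 10 genes at any age. On the length-corrected scale (FPKM), C1qa was 0.630 to 0.763 times C1qb and C1qc was 0.297 to 0.477 times C1qb over the 6 libraries. Both ratios were higher in the 6W than in the 3M libraries, whereas those at 2W overlapped both. The gap was narrow for C1qa, 0.718 in 6W replicate 1 against 0.709 in 3M replicate 2. How many other ratios part in this way was not counted.

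RefSeq promoters of GRCm38.p6 were matched for 7 of the 10 genes (Cd163, Mrc1, C1qb, C1qc, Timd4, Mertk and Lyz2). The 250 bases before the start were searched on both strands for GAGGAA (a core bound by PU.1, the master factor of macrophages), TGCTGAC (MAF) and CACGTG (an E-box), none of which overlaps another. GAGGAA was found in 3 of the 7, against 23.3% of all 32851 promoters searched in the same way. TGCTGAC was found in 1 of the 7 (Timd4), against 3.81% of all promoters, and CACGTG in 0 of the 7, against 6.02%. The 3 windows with GAGGAA are shown because 2 of them belong to chains of the same protein. They cover chr2:14229164-14229413 on the plus strand (Mrc1), chr4:136886201-136886450 on the minus strand (C1qb) and chr4:136892915-136893164 on the minus strand (C1qc). The windows of C1qc, Cd163 and Timd4 overlap the RefSeq span of the gene, so that the start used lies within that span. Capitals mark GAGGAA or its reverse complement TTCCTC.
Mrc1: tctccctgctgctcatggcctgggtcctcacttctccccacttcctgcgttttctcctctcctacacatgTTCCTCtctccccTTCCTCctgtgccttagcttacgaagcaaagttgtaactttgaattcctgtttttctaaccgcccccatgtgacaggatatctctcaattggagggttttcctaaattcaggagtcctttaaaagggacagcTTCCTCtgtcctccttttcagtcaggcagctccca
C1qb: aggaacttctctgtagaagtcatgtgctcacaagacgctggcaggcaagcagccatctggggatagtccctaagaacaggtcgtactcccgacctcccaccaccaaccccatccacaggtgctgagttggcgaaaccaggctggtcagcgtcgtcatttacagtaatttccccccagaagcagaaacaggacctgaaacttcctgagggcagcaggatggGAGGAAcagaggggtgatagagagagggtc
C1qc: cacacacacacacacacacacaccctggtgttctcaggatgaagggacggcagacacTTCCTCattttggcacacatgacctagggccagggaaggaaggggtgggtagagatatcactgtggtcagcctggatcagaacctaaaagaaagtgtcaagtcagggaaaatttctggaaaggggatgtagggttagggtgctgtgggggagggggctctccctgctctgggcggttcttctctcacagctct
The window of Mrc1 holds 3 matches, at -180, -167 and -35 from the start, and those of C1qb and C1qc hold 1 each, at -30 and -193. A match is a run of letters and not a measured binding site.

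**Figure D2:**
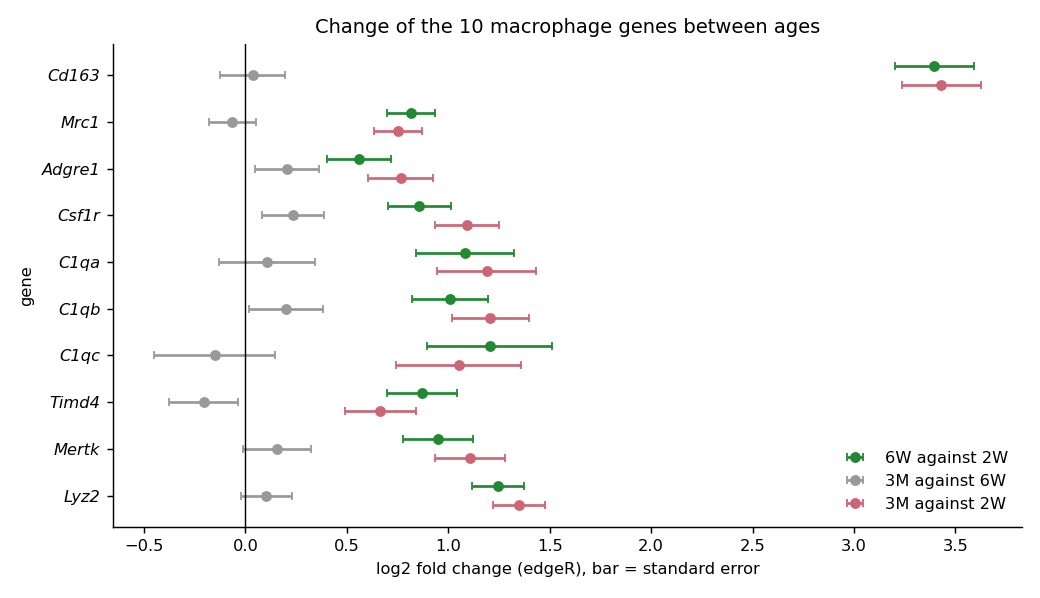
Log2 fold change of the 10 macrophage genes in 6W against 2W, 3M against 6W and 3M against 2W, with bars of 1 standard error. All points of 6W against 2W and 3M against 2W lie to the right of 0, between 0.56 and 3.43, whereas those of 3M against 6W lie between -0.21 and 0.24.

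The comparisons share libraries and are not independent of one another. In 6W against 2W the log2 fold changes of the 10 genes ran from 0.56 (Adgre1) to 3.40 (Cd163), with a median of 0.98, beside a median of -0.0061 over all tested genes. From 6W to 3M they ran from -0.21 (Timd4) to 0.24 (Csf1r), with a median of 0.11, beside 0.023 over all genes. Over the whole span, 3M against 2W, they ran from 0.66 (Timd4) to 3.43 (Cd163), with a median of 1.10, beside -0.026 over all genes.

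Levels can be compared between genes only on the FPKM scale. At each age Lyz2 was highest, with 92.1 ± 4.58 (SD, n = 2) FPKM at 2W, 231 ± 12.4 FPKM at 6W and 246 ± 26.8 FPKM at 3M. It was followed by C1qb, with 38.8 ± 6.05 FPKM at 2W and 82.8 ± 4.31 FPKM at 6W, and then by C1qa, C1qc and Csf1r. C1qb and C1qa overlapped at 3M, as did C1qc and Csf1r. Adgre1 and Mrc1 came next, overlapping at 2W and 3M, and then Timd4 and Mertk, which overlapped at 6W and 3M. Cd163 was last at each age, with 0.435 ± 0.035 FPKM at 2W, 4.86 ± 0.84 FPKM at 6W and 4.94 ± 0.33 FPKM at 3M. At 2W its nearest neighbour, Mertk, was at 2.80 ± 0.54 FPKM, whereas at 6W the libraries of Mertk and Cd163 overlapped.

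The 10 genes were also set against Csf1r in the same library. The FPKM of Mertk was 0.267 to 0.304 times that of Csf1r over the 6 libraries and that of C1qb was 3.82 to 4.47 times. The ratio of Cd163 to Csf1r was 0.042 and 0.045 in the 2W libraries, 0.264 and 0.239 in the 6W libraries, and 0.236 and 0.206 in the 3M libraries. Cd163 was thus lower at 2W than the rest of the set on this scale as well. The ratio of Lyz2 to Csf1r was 8.67 and 9.82 at 2W, 11.6 and 12.5 at 6W, then 13.3 and 9.05 at 3M, so that the 2W and 3M libraries overlapped. The ratio of Timd4 to Csf1r was 0.320 and 0.401 at 2W, 0.371 and 0.348 at 6W, then 0.319 and 0.221 at 3M. Both 3M values of the ratio of Mrc1 to Csf1r, 0.563 and 0.493, lay below the 4 earlier ones, which were 0.634 to 0.702. Csf1r, the divisor, had the largest log2 fold change of the 10 genes in 3M against 6W.

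Replicates differed for most of the 10 genes in a shared direction. At 2W replicate 1 was higher for 8 genes, with Adgre1 and Timd4 the exceptions, and at 6W for 9 genes, with C1qc the exception. At 3M replicate 2 was higher for 8 genes, with Timd4 and Lyz2 the exceptions. The 10 genes are read from the same libraries and are not replicates of an age.

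Other genes of macrophage biology were taken from 8 lists with 138 genes, none of them among the 10, of which 136 were tested. In 6W against 2W, 29 of the 136 rose and 0 fell at an adjusted p under 0.05 in edgeR's quasi-likelihood test with Benjamini-Hochberg adjustment, where 1.74% of all genes were called, 1.47% as higher and 0.263% as lower, and the median log2 fold change was 0.76. Between 2W and 3M, 67 rose and 1, F13a1, fell, where 11.0% of all genes were called, 7.91% as higher and 3.10% as lower, and the median was 0.88. Between 6W and 3M, edgeR's quasi-likelihood test called 0 of the 136 and 0.00675% of all genes. An unadjusted p under 0.05 was found for 19 of the 136 and for 2113 of all 14805 tested genes. DESeq2 called 2 of the 136 and 341 of all genes. Cd209a, Vsig4 and Folr2 passed the filter on low counts only through the ages at which they were high and so had to differ, and without them 28 rose in 6W against 2W and 64 in 3M against 2W. At the threshold that the study used, which is an unadjusted p under 0.05 and a log2 fold change above 1 or below -1, 45 were higher and 2 lower in 6W against 2W, where 5.36% of all genes passed. The same threshold gave 1 higher and 1 lower in 3M against 6W (2.11% of all genes) and 60 higher and 2 lower in 3M against 2W (9.35%). The number called at an adjusted p under 0.05 in 6W against 2W was 64 with DESeq2, 58 in a fit of the 4 libraries compared, 57 and 60 without a 3M library, and 0 both with reference transcripts only and without any 1 of the 2W or 6W libraries. In 3M against 2W it was 20 and 23 without a 2W library and 43 without either 6W library, where the lone library of an age is assumed to vary like the others.

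**Figure D3:**
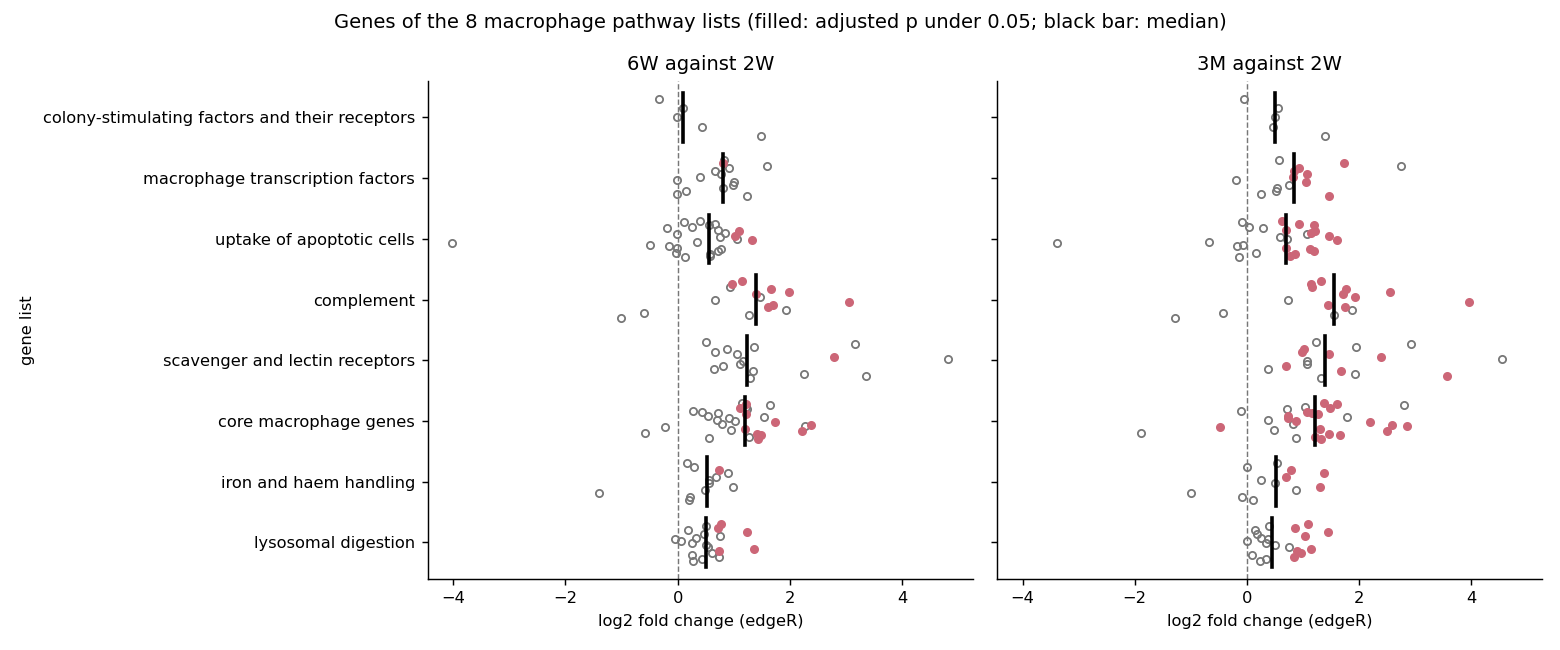
Log2 fold change of each tested gene of the 8 pathway lists in 6W against 2W (left) and 3M against 2W (right), with filled points at an adjusted p under 0.05 and a black bar at the median of each list. Medians run from 0.09 (colony-stimulating factors and their receptors) to 1.39 (complement) on the left and from 0.45 (lysosomal digestion) to 1.56 (complement) on the right.

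Of the colony-stimulating factors and their receptors, 0 of 5 tested genes were called in any comparison by edgeR's quasi-likelihood test or by DESeq2. An unadjusted p under 0.05 was found for 3, 0 and 2 of them in 6W against 2W, 3M against 6W and 3M against 2W. Over all 14805 tested genes it was found for 2794, 2113 and 4039. Csf1, the main ligand of Csf1r and the gene of this list with the highest mean FPKM, was at 661 and 726 CPM in the 2W libraries, 571 and 525 CPM in the 6W libraries, and 741 and 598 CPM in the 3M libraries. Its log2 fold change was -0.34 (standard error 0.13) in 6W against 2W, opposite in sign to that of its receptor, with an adjusted p of 0.24. Csf3, singled out after its values were seen, was at 0 counts in all 6 libraries, which allows up to 3 counts in each.

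Of the macrophage transcription factors, 1 of 14 rose in 6W against 2W and 7 of 14 in 3M against 2W. Cebpa, which with PU.1 sets up the myeloid programme, was at 10.4 and 12.4 CPM at 2W, 20.7 and 19.2 CPM at 6W, and 38.0 and 37.4 CPM at 3M. Its log2 fold change was 0.81 in 6W against 2W (adjusted p = 0.046) and 1.72 in 3M against 2W (adjusted p = 0.0048). Also called in 3M against 2W were Maf, Irf5, Irf8, Nr1h3 and Klf4, with log2 fold changes from 0.81 (Maf) to 1.46 (Klf4). Irf8, the gene of the list with the highest mean FPKM, was at 55.9 and 45.2 CPM at 2W and 80.0 and 102 CPM at 3M. Spi1, which encodes PU.1 itself and was singled out after its values were seen, was at 5.12 and 5.33 CPM at 2W, 8.87 and 9.71 CPM at 6W, and 5.23 and 10.3 CPM at 3M. Its 3M replicates were therefore apart by nearly the whole range of the gene, and its adjusted p was 0.24 or more in each comparison.

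Of 25 genes for the uptake of apoptotic cells, 3 rose in 6W against 2W and 13 in 3M against 2W. The 3 were Havcr2 (Tim-3), the integrin subunit Itgb5 and the scavenger receptor Stab1, with log2 fold changes of 1.33, 1.09 and 1.03 and adjusted p-values of 0.028, 0.035 and 0.036. Gas6, the bridging ligand of Mertk and Axl, was at 106 and 90.9 CPM at 2W, 163 and 151 CPM at 6W, and 173 and 204 CPM at 3M, with a log2 fold change of 0.93 in 3M against 2W (adjusted p = 0.012). Pros1, the other bridging ligand, and Axl rose by 1.19 and 0.63 on the log2 scale in the same comparison. Also called there were Itgb3, Lrp1, Dock1, Tgm2, Anxa1 and the lipid exporters Abca1 and Abcg1, with log2 fold changes from 0.70 to 1.19. Ucp2, a mitochondrial carrier and the gene of the list with the highest mean FPKM, was at 451 to 687 CPM in the 6 libraries and had an adjusted p of 0.53 or more. Tyro3, the remaining receptor of the Mertk family, was at 3.07 to 4.27 CPM in the 6 libraries and was singled out after its values were seen.

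Of the 15 complement genes beside the C1q chains, 8 rose in 6W against 2W and 10 in 3M against 2W. C1ra and C1s1, which encode the proteases that C1q activates, rose by 1.15 and 0.96 on the log2 scale in 6W against 2W (adjusted p = 0.043 and 0.040). C3, the central component and the gene of the list with the highest mean FPKM, was at 245 and 168 CPM at 2W, 719 and 598 CPM at 6W, and 760 and 649 CPM at 3M, a log2 fold change of 1.67 in 6W against 2W (adjusted p = 0.026). C4b, Cfb, the inhibitor Serping1 and the receptor C3ar1 rose in the same comparison by 1.99, 1.39, 1.70 and 1.61. Cfd, which is also a product of adipocytes and stands on the adipocyte list as well, rose most, by 3.06. C2 was called in 3M against 2W, with a log2 fold change of 1.15, and had an adjusted p of 0.062 in 6W against 2W. With reference transcripts only, the log2 fold change of Serping1 in 3M against 2W was -0.420 in place of 1.44.

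Of 16 scavenger and lectin receptors, all 16 had a log2 fold change above 0 in 6W against 2W, and 1 was called there. That gene, Cd209a, a C-type lectin of monocyte-derived cells, was at 0.44 and 0.74 CPM at 2W and 4.17 and 4.02 CPM at 6W, and it passed the filter only through the later ages. Of the list, 7 were called in 3M against 2W, namely Mrc2, Colec12, Scara5, Clec7a and Siglec1, which rose, and Cd209a and Vsig4, which passed the filter only through the later ages. Siglec1, the sialoadhesin of tissue macrophages, was at 8.09 and 6.44 CPM at 2W, 23.0 and 13.8 CPM at 6W, and 23.3 and 22.9 CPM at 3M. Clec7a, the beta-glucan receptor and the gene of the list with the highest mean FPKM, had a log2 fold change of 0.70 in 3M against 2W (adjusted p = 0.036). Vsig4, a complement receptor, had 1 and 1 counts at 2W, 18 and 12 at 6W, then 15 and 16 at 3M, and no fold is given against so few counts. Cd209b and Marco, which mark macrophages of the splenic marginal zone, were singled out after their values were seen. Cd209b had 4 and 2 counts at 2W, 182 and 49 at 6W, then 147 and 8 at 3M. Marco had 9 and 2, 84 and 50, and 83 and 9 counts in the same order. For both genes 3M replicate 1 was high and 3M replicate 2 low, and no test is given for them.

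Of 29 core macrophage genes, 10 rose in 6W against 2W, and 18 rose and 1 fell in 3M against 2W. Cx3cr1, the chemokine receptor of medullary macrophages, was at 2.02 and 2.15 CPM at 2W, 7.27 and 6.66 CPM at 6W, and 9.98 and 9.18 CPM at 3M. Its log2 fold change was 1.74 in 6W against 2W (adjusted p = 0.023) and 2.20 in 3M against 2W (adjusted p = 0.0056). Cd5l, a secreted protein of tissue macrophages, and the chemokine Ccl8 rose by 2.37 and 2.22 on the log2 scale in 6W against 2W. Apoe, the lipid carrier and the gene of the list with the highest mean FPKM, was at 111 and 77.7 CPM at 2W, 266 and 260 CPM at 6W, and 244 and 353 CPM at 3M, and rose by 1.48 in 6W against 2W (adjusted p = 0.040). Mpeg1, Fcgr3, Tlr13, Cbr2, Ccl6 and Lyz1 were also called in 6W against 2W, with log2 fold changes from 1.11 to 1.43. Called in 3M against 2W beside these were Fcgr1, Tlr4, Tlr7, Sirpa, Tyrobp, Ms4a7, Lgals3 and Folr2, the last with 6 and 3 counts at 2W. F13a1, a coagulation factor subunit, fell by 0.47 in that comparison, from 158 and 177 CPM to 118 and 123 CPM.

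Of 12 genes for iron and haem handling, 1 rose in 6W against 2W and 4 in 3M against 2W. Vcam1, an adhesion molecule of macrophages that recycle iron and also of endothelium, was at 201 and 204 CPM at 2W, 360 and 319 CPM at 6W, and 324 and 374 CPM at 3M, a log2 fold change of 0.74 in 6W against 2W (adjusted p = 0.043). Hfe, Slc11a1 and Hpgd were the others called in 3M against 2W, with 1.30, 1.38 and 0.70. Ftl1, the ferritin light chain and the gene of the list with the highest mean FPKM, had an adjusted p of 0.13 or more. Of 20 genes for lysosomal digestion, 5 rose in 6W against 2W and 8 in 3M against 2W. The cathepsins Ctss, Ctsb and Ctsh rose by 1.24, 0.77 and 0.72 in 6W against 2W, with adjusted p-values of 0.019, 0.035 and 0.035. Gpnmb and Hexa were called in both comparisons with 2W, and Lgmn and Grn in 3M against 2W. Ctsl, the cathepsin with the highest mean FPKM of the list, was at 730 to 893 CPM in the 6 libraries and was not called by edgeR's quasi-likelihood test. With reference transcripts only, the log2 fold change of Ctsh in 6W against 2W was -0.172.

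Markers of other cell types moved between the ages too, and their part in the differences above was not tested. None of the markers named here was at 0 in all 6 libraries. Over all 14805 tested genes, an unadjusted p under 0.05 was found for 2794 in 6W against 2W, 2113 in 3M against 6W and 4039 in 3M against 2W. DESeq2 called 888, 341 and 2200 genes in the same order. The 10 dendritic cell markers summed to 129 to 149 CPM at 2W, 189 to 194 CPM at 6W and 148 to 195 CPM at 3M, and 1 rose in 6W against 2W (Itgax, 1.39, adjusted p = 0.036) and 4 in 3M against 2W (Itgax, Flt3, Xcr1 and Cd207). The 12 neutrophil and monocyte markers summed to 30.1 to 50.6 CPM at 2W, 91.8 to 104 CPM at 6W and 41.9 to 56.0 CPM at 3M. The median log2 fold change of the 11 tested was 1.35 in 6W against 2W (10 of 11 above 0), -1.78 in 3M against 6W (10 of 11 below 0) and -0.96 in 3M against 2W (8 of 11 below 0). In 3M against 6W, edgeR's quasi-likelihood test called 0 of them, while 7 had an unadjusted p under 0.05 and DESeq2 called 3. Ly6c2, a monocyte antigen at 9.38 to 10.1 CPM at 2W and 32.6 to 32.8 CPM at 3M, was the 1 gene above 0 in 3M against 6W and rose in both comparisons with 2W, by 1.09 and 1.74. S100a9, another marker of this list and singled out after its values were seen, had 114 and 38 counts at 2W, 301 and 341 at 6W, then 10 and 60 at 3M. The 7 adipocyte markers summed to 74.0 to 96.0 CPM at 2W, 214 to 220 CPM at 6W, and 488 CPM in 3M replicate 1 and 237 CPM in 3M replicate 2. Of these, 3 rose in 6W against 2W (Adipoq, Cidec and Cfd) and 5 in 3M against 2W (also Plin1 and Fabp4).

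The 8 markers of double positive thymocytes, the main cells of the organ, summed to 14639 and 16378 CPM at 2W, 13541 and 13517 CPM at 6W, and 11755 and 11728 CPM at 3M. Of these, 0 were called by edgeR's quasi-likelihood test in 6W against 2W (3 at an unadjusted p under 0.05 and 1 with DESeq2), where the median log2 fold change was -0.17, and 5 fell in 3M against 2W, among them Rag1, Ptcra, Cd4 and Cd8a, by 0.43 to 0.85. Of the 6 fibroblast markers, Pi16 rose in 6W against 2W, and in 3M against 2W Pdgfra, Dcn and Pi16 rose whereas Col1a1 and Col3a1 fell. Their sum was 387 to 427 CPM at 2W, 395 to 431 CPM at 6W and 249 to 337 CPM at 3M. Of the 6 endothelial markers, 1, Plvap, rose in 3M against 2W, and their sum was 202 to 234 CPM over all 6 libraries. Of the 8 markers of thymic epithelium, Prss16 and Ly75 rose and Foxn1 fell in 3M against 2W, although the log2 fold change of Foxn1 was 9.10 with reference transcripts only, and the sum of the 8 was 1330 to 1461 CPM at 2W and 6W and 1741 to 1867 CPM at 3M. The 6 eosinophil and mast cell markers summed to 6.89 to 7.36 CPM at 2W and 10.9 to 13.8 CPM later, and the 7 markers of B and plasma cells to 55.5 to 88.3 CPM in all libraries, with 0 called by edgeR's quasi-likelihood test in either list. In 6W against 2W and 3M against 2W, 4 and 3 of the former and 3 and 1 of the latter had an unadjusted p under 0.05, and DESeq2 called 1 and 1, and 2 and 1. The 5 red blood cell markers summed to 401 to 814 CPM in 5 libraries and to 2160 CPM in 3M replicate 2. Of these, 0 were called by edgeR's quasi-likelihood test, while 3 had an unadjusted p under 0.05 and DESeq2 called 1 in 3M against 6W. Without 3M replicate 2, the median log2 fold change of the 10 macrophage genes was 0.887 in 3M against 2W and -0.074 in 3M against 6W. Without 3M replicate 1 it was 1.24 and 0.218 in the same order. The part of red blood cells in these values was not tested.

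**Figure D4:**
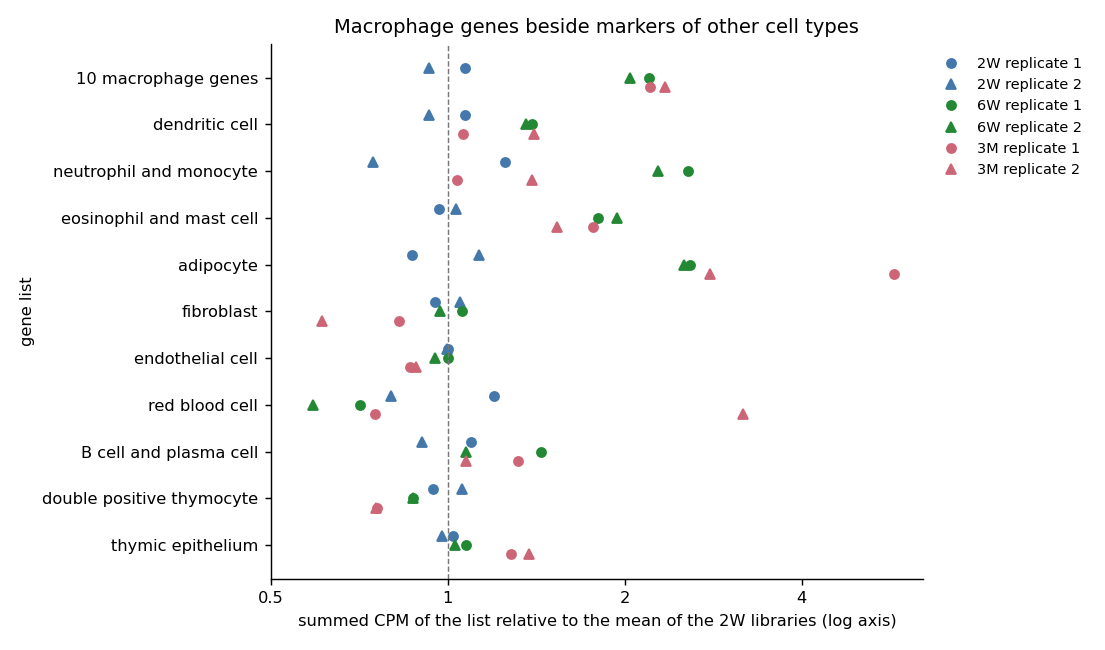
Summed CPM of the 10 macrophage genes and of the marker lists of other cell types in each library, relative to the mean of the 2W libraries (log axis), with circles for replicate 1 and triangles for replicate 2. The macrophage genes lie near 2 in all 4 later libraries, adipocyte markers are highest in 3M replicate 1, and red blood cell markers are highest in 3M replicate 2.

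The 5 genes outside all lists whose profile over the 6 libraries was most like the mean profile of the 10 genes were Crispld2, Anpep, Itprid2, H2-Ob and Zbtb42. Likeness was the root mean square difference of log2 CPM, centred on the mean of each gene, among 10752 tested genes with a mean of at least 5 CPM. The difference was 0.057 for Crispld2, 0.078 for Anpep, 0.084 for Itprid2, 0.085 for H2-Ob and 0.096 for Zbtb42. Among the 10 genes themselves it ran from 0.112 (C1qb) and 0.122 (Mertk) to 1.03 (Cd163). Anpep, an aminopeptidase of myeloid and other cells, was at 8.16 and 8.34 CPM at 2W, 19.6 and 18.1 CPM at 6W, and 18.6 and 22.0 CPM at 3M. The other 4 had log2 fold changes of 1.04 to 1.20 in 6W against 2W. The likeness is a description over 6 libraries and not a sign of shared cells or control.

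Of the miRNAs of macrophages and other myeloid cells, miR-511 is read from an intron of Mrc1, within which RefSeq places its hairpin. miR-223 is the best known miRNA of granulocytes and monocytes. The mature sequences of both arms are shown because the arms are counted apart and share no seed. They are written as in the deposited miRNA table, 5′ to 3′ with T for U, and capitals mark the seed (bases 2 to 8).
mmu-miR-511-5p: aTGCCTTTtgctctgcactca
mmu-miR-511-3p: aATGTGTAgcaaaagacaggat
mmu-miR-223-5p: cGTGTATTtgacaagctgagttg
mmu-miR-223-3p: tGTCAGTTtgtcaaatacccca
The sequences of miR-511-3p and of both miR-223 arms are the same as those of RefSeq.

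miR-511 was rare. miR-511-3p had 7 and 16 counts in the 2W libraries, 24 and 25 in the 6W libraries, and 39 and 23 in the 3M libraries, which is 0.671 and 1.57 CPM, 2.37 and 2.74 CPM, and 3.52 and 2.51 CPM. miR-511-3p passed the filter on low counts only through the later ages. Its lower level at 2W therefore carries no weight, and no test is given for it. miR-511-5p had 20 and 10 counts at 2W, 22 and 27 at 6W, then 22 and 18 at 3M, with an adjusted p of 0.30 or more in each comparison in edgeR's quasi-likelihood test over 822 miRNAs. At this depth a change of miR-511-5p was therefore not called.

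The more abundant miR-223-3p had 207 and 207 counts at 2W, 280 and 300 at 6W, then 473 and 351 at 3M, or 19.9 and 20.3 CPM, 27.7 and 32.9 CPM, and 42.7 and 38.3 CPM. It rose in 3M against 2W by 1.01 on the log2 scale (standard error 0.22, adjusted p = 0.0077), where 29.9% of all tested miRNAs were called in either direction. miR-223-5p had 4 and 4, 12 and 12, and 22 and 13 counts and likewise passed the filter only through the later ages, so that no test is given for it. In 6W against 2W the log2 fold change of miR-223-3p was 0.59 (adjusted p = 0.11), where 8.64% of all miRNAs were called. In 3M against 6W it was 0.42 (adjusted p = 0.32), where 0.852% were called. Of the other miRNAs known from activated macrophages, miR-146a-5p and miR-21a-5p rose in 3M against 2W by 1.45 and 0.75 (adjusted p = 0.0026 and 0.022). miR-155-5p, at 311 to 437 CPM, and miR-147-3p, at 17.7 to 26.9 CPM, had adjusted p-values of 0.55 or more. Both miR-155 and miR-146a are also made by lymphocytes, which make up most of the organ.

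**Figure D5:**
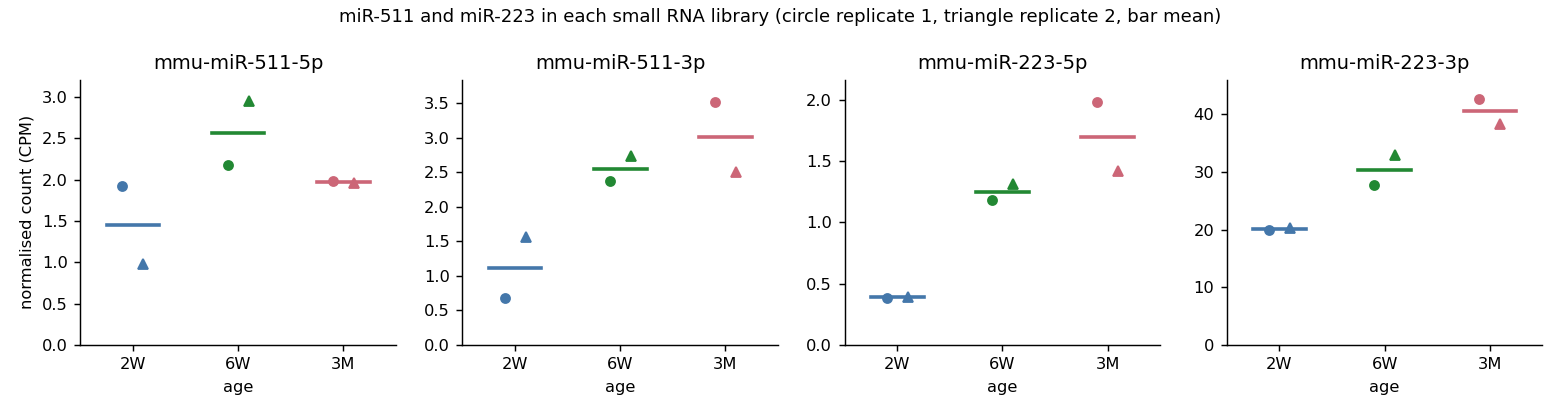
Normalised count (CPM, linear axis from 0) of both arms of miR-511 and miR-223 by age, with a circle (replicate 1) and a triangle (replicate 2) per library and a bar at the mean. The mean rises from 2W to 3M in miR-223-3p, miR-223-5p and miR-511-3p, whereas that of miR-511-5p is highest at 6W. miR-223-5p and miR-511-3p passed the filter on low counts only through the later ages.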

How the data were processed

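For mRNAs the authors deposited FPKM and estimated counts (expected counts) of each transcript, from ribosomal RNA-depleted, strand-specific libraries. Tag counts and TPM per miRNA, and junction counts and RPM per circRNA, were deposited as well. The program that made the estimated counts is not given in the sources used here. The submitters' processing notes name Bowtie 0.12.2 and mm8 without a role. TPM and RPM were not used, and the lncRNA table pairs no row with a symbol and was not used here. Of the estimated counts, 84.1% are not whole numbers.

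Groups are the ages that the labels give. Estimated counts of all transcripts of a symbol were added up, with spellings in upper and lower case taken as 1 gene (665 genes, none of the 10), then rounded and tested in R 4.3.3 with edgeR 4.0.16 (TMM, filterByExpr, quasi-likelihood F test, prior count 0.125), with all 6 libraries and age as the only term in 1 fit. miRNA counts were fitted in the same way. FPKM was summed over transcripts. Adjusted p-values follow Benjamini and Hochberg. Standard errors were derived from the same fit, as the absolute log2 fold change over the square root of the F statistic. DESeq2 1.42.0 and the other alternatives are given in the closing section. Tables and figures were made in Python 3.11.15 with pandas 2.3.3, numpy 2.4.6 and matplotlib 3.10.9. Nothing states that the 2 replicates of an age came from separate litters, so p-values measure the spread between these samples.

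The 10 genes, the gene lists and the tests were chosen with earlier results of these data known. Named are the 10 genes, each listed gene called in any comparison, the gene of each pathway list with the highest mean FPKM, the listed miRNAs, the circRNAs of the 10 genes and the 5 genes most like them in profile. Genes named outside this rule are marked in the text. Some listed genes are counted but not reported here by name.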

Additional observations from a re-analysis of the deposited data

Results flagged for a closer look

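Back-spliced junction counts were not used in any comparison above. The circRNA table lists 8 circRNAs whose source gene is 1 of 4 of the 10 genes (Lyz2, Adgre1, Mrc1 and Mertk), and 3 of these had more than the 3 counts that a count of 0 allows in at least 1 library. Each library held only 10663 to 21914 junction counts. novel_circ_003582 and novel_circ_003583 of Mertk had 7 counts each in 3M replicate 2. In the other 5 libraries they had at most 2 counts, and 0 in 3M replicate 1. novel_circ_000665, assigned to Lyz2 on the minus strand, had 4 counts in 3M replicate 1, 3 and 3 in the 6W libraries, 0 and 1 at 2W and 1 in 3M replicate 2. The remaining 5, namely novel_circ_000664, annotated as antisense to Lyz2 on the plus strand, novel_circ_002672, novel_circ_002673 and novel_circ_002674 of Adgre1 and novel_circ_003249 of Mrc1, had at most 3 counts in any library. The spliced lengths of novel_circ_000664 and novel_circ_000665, 10461 and 7256 bases, both exceed the 4732 bases of Lyz2 in RefSeq. By RefSeq positions, if the build is the same, each starts within Lyz2 and ends within the neighbouring paralog Lyz1. Their assignment to Lyz2, which is that of the deposited table, is therefore uncertain.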

How the results depend on the processing

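Of the 210 values of the 10 genes under the alternatives that keep all libraries of both ages (DESeq2, total counts as scaling, no filter, the 4 libraries compared, the replicate term, exact symbols and reference transcripts only), all 210 moved by less than the spread between replicates. Of 180 with 1 library left out, 17 moved further, 9 of them without 3M replicate 2. Their median log2 fold change ranged over these fits from 0.861 to 1.17 in 6W against 2W, from -0.074 to 0.218 in 3M against 6W and from 0.887 to 1.35 in 3M against 2W. Counts of calls moved far more, and the cause was not tested. Genes called in 6W against 2W numbered 257 in the reported fit, 888 with DESeq2, 467 without a filter, 662 with the 4 libraries, 4 with reference transcripts only, 124 with exact symbols, 395 with total counts and 0 to 658 with 1 library left out. In 3M against 6W, 1 gene was called, 341 with DESeq2, 19 without a filter, 0 with the 4 libraries, reference transcripts or exact symbols, and 0 to 11 with 1 library left out. In 3M against 2W, 1630 were called, 663 with the 4 libraries, 922 with reference transcripts only and 239 to 1741 with 1 library left out. Pathway genes called in 6W against 2W numbered 29, 64 with DESeq2, 50 without a filter, 58 with the 4 libraries, 0 with reference transcripts only and 0 to 60 with 1 library left out. In 3M against 6W they numbered 0, 2 with DESeq2, and 0 to 0 with 1 library left out. In 3M against 2W they numbered 68, 44 with the 4 libraries and 20 to 71 with 1 library left out. miRNAs called in 6W against 2W numbered 71, 109 without a filter and 3 to 105 with 1 library left out. In 3M against 6W they numbered 7, 44 with DESeq2, 47 without a filter, 12 with the 4 libraries and 0 to 22 with 1 library left out, and in 3M against 2W 246, and 158 to 208 with 1 library left out.

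Nothing states whether replicate numbers pair the samples across ages. The deviations of same-numbered libraries correlated at -0.058 (2W and 6W), 0.353 (6W and 3M) and -0.178 (2W and 3M) over genes. Over miRNAs the values were 0.224, -0.070 and -0.150 in the same order. Each value rests only on the difference between the replicates of each age, so it cannot decide whether the numbers pair the samples. With the replicate number as a block, 5, 0 and 742 genes were called in 6W against 2W, 3M against 6W and 3M against 2W, and 0 pathway genes in 6W against 2W.

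The direction reversed in 7 values outside the fits that leave out a library. With reference transcripts only, the log2 fold change was -0.172 for Ctsh in 6W against 2W, -0.420 for Serping1 and 9.10 for Foxn1 in 3M against 2W. That of mmu-miR-147-3p in 6W against 2W, reported as -0.00097, was 0.096 with DESeq2, 0.099 without a filter, 0.072 with the 4 libraries and 0.0083 with the replicate block. With 1 library left out, mmu-miR-147-3p ranged from -0.271 to 0.431 in 6W against 2W, -0.287 to 0.031 in 3M against 6W and -0.377 to 0.289 in 3M against 2W. mmu-miR-155-5p ranged from -0.011 to 0.260 in 3M against 6W and from -0.246 to 0.138 in 3M against 2W, and mmu-miR-511-3p from -0.024 to 0.418 in 3M against 6W. The lone library left at an age is assumed to vary like those of the other ages.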
